A study of Homo sapiens with 6 samples.

Results

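Genes of nucleotide excision, base excision, mismatch and end-joining repair were examined in cells labelled NCI-H1703 that carried a short hairpin RNA (shRNA) against PPM1G, a nuclear serine/threonine phosphatase, and in control cells. The 42 genes were taken by name from the 17534 genes of the deposited table. They were chosen with earlier results of these data known. By textbook role they were sorted into 11 nucleotide excision, 19 base excision, 5 mismatch repair and 7 end joining genes. Of these, 41 passed the filter on low counts, together with 13060 genes in all. Only NEIL1 was left out by it.

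The PPM1G shRNA group held 3 libraries whose genotype label is Sh-PPM1G, and the control group held 3 libraries whose genotype label is Sh-NC, while the series title speaks of wild-type PPM1G for the controls. NCI-H1703 is an established human lung cancer cell line, labelled as squamous. All 6 libraries came from this 1 line, as mRNA libraries from total RNA. The number and sequence of the hairpins, whether a clone or a pool of cells was used, and whether the libraries of a group came from separate cultures are not stated in the labels. The p-values therefore reflect how far these libraries spread within a group, and that spread may be technical.

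The 4 pathways deal with different lesions. Nucleotide excision repair cuts out a short stretch of DNA around a bulky or ultraviolet-induced lesion, found either by a sensor that scans the genome or by a stalled RNA polymerase. In base excision repair a glycosylase removes a single damaged base, an endonuclease nicks the backbone, and a polymerase and ligase fill and seal the gap. Mismatch repair removes copying errors behind the replication fork, and end joining ligates the ends of broken DNA after the Ku proteins have bound them.

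Library totals ranged from 31337553 to 35838246 counts. Levels are given as CPM, counts relative to library size, scaled with TMM factors, which allow for differences in composition between libraries, and levels of different genes are compared only as FPKM, a level that allows for gene length and library total. Changes are log2 fold changes of PPM1G shRNA over control ± SE. Adjusted p-values are from edgeR's quasi-likelihood test with Benjamini-Hochberg adjustment over the 13060 genes, and a gene was called at a value under 0.05. PPM1G itself had 182, 194 and 188 CPM in the PPM1G shRNA libraries, against 333, 308 and 324 CPM in the control libraries, a log2 change of -0.77 ± 0.03 that left 0.585 of the control level. Of 8 squamous markers 7 were in the table, and all 7 were under 1 FPKM in every library. Their sums were 0.166 to 0.214 FPKM in PPM1G shRNA libraries and 0.232 to 0.337 FPKM in control libraries. The squamous label is thus not borne out by these transcripts. Among 5 lung adenocarcinoma markers, NKX2-1 averaged 52.6 FPKM in PPM1G shRNA libraries and 46.1 FPKM in control libraries. NAPSA averaged 14.8 and 1.37 FPKM in the same order. SFTPB and SFTPC were under 1 FPKM in every library, and SFTA2 was absent. Of 12 proliferation markers all 12 fell, with a median log2 change of -2.79 and summed levels of 117 to 122 FPKM in PPM1G shRNA libraries, against 678 to 695 FPKM in control libraries. In bulk RNA, fewer cells of a type and less RNA per cell cannot be told apart, and how far cell cycle state contributed to the repair gene changes was not tested. Of 8 blood and endothelial markers 6 were under 1 FPKM in every library, among them PTPRC and CD3E. Of the other 2, HBB reached 1.29 FPKM, and CD68, a lysosomal protein, had 353, 343 and 335 FPKM in the PPM1G shRNA libraries, against 736, 710.5 and 704 FPKM in the control libraries. The summed level of the list was 336 to 354 FPKM in PPM1G shRNA libraries and 706 to 738 FPKM in control libraries. Most of this sum was CD68, and the part of the list in the results was not tested. Of its 4 genes that passed the filter on low counts, 3 fell and 1 rose. PECAM1 changed by -2.30 ± 0.20 and VWF by 2.29 ± 0.28, both at levels under 1 FPKM.

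Most repair genes changed, and falls outnumbered rises. Of the 41 tested genes 33 were called (80.5%), against 82.9% of all genes tested, so the share that changed at all was near the background. Falls made up 22 of the 41 (53.7%), against 41.3% of all genes, and rises made up 11 (26.8%), against 41.5%. At least 2-fold falls were called for 8 genes (19.5%), against 12.4% of all genes, and at least 2-fold rises for 2 genes, against 11.8%. The median log2 change was -0.14 over the repair genes and 0.01 over all genes tested. No test of these shares against other genes was made. The 8 genes that fell at least 2-fold were NEIL3, UNG, LIG1, PARP1, PARP2, XRCC6, PRKDC and ERCC2, and the 2 that rose at least 2-fold were XPC and XPA.

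**Figure D1:**
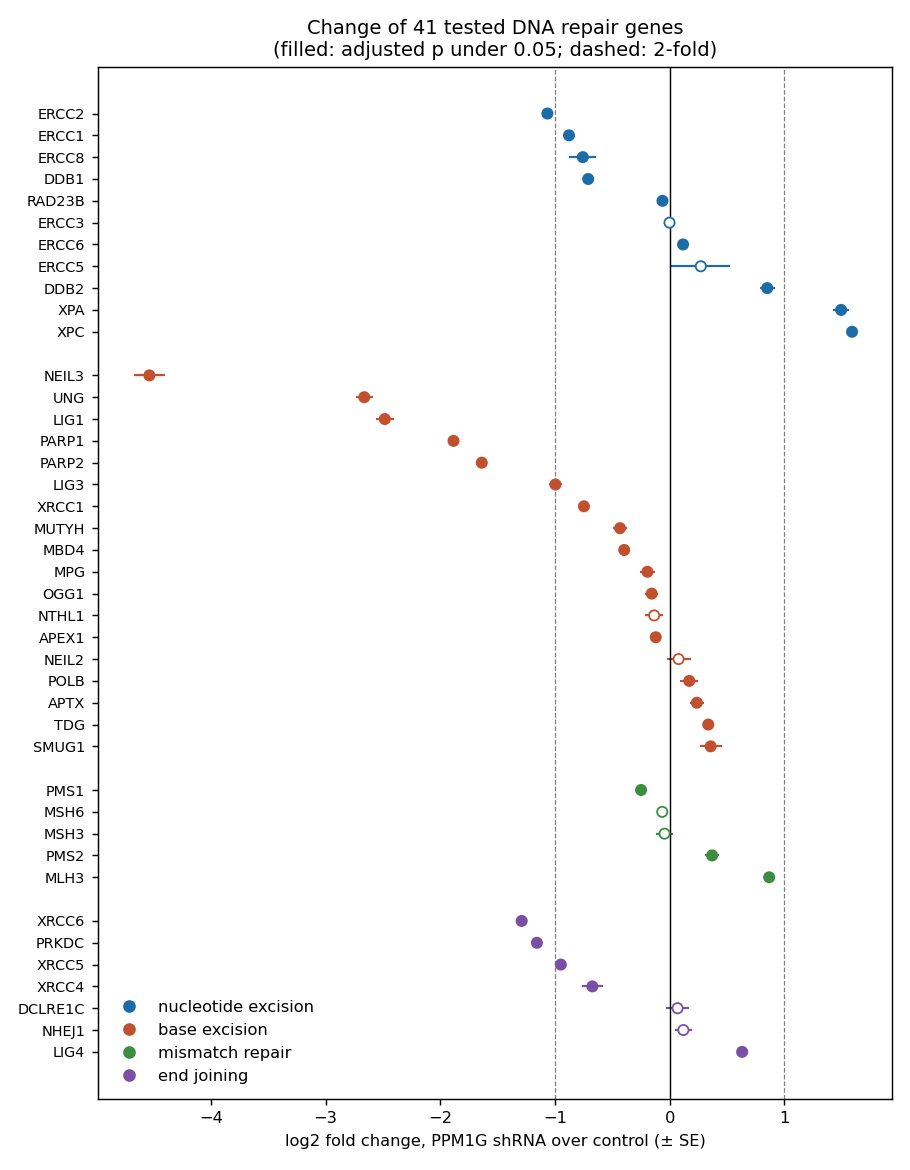
Log2 fold change of PPM1G shRNA over control for the 41 tested repair genes, by pathway, with bars of 1 SE, filled points for called genes and dashed lines at 2-fold. NEIL3 lies farthest to the left at -4.54 and XPC farthest to the right at 1.59.

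By pathway, base excision genes held 12 falls (66.7%) and 4 rises among 18 tested, with 5 falls of at least 2-fold and a median log2 change of -0.30. End joining genes held 4 falls (57.1%) and 1 rise among 7, with 2 falls of at least 2-fold and a median of -0.67. Nucleotide excision genes held 5 falls (45.5%) and 4 rises among 11, with 1 fall and 2 rises of at least 2-fold. Mismatch repair genes held 1 fall and 2 rises among 5, none of them at least 2-fold. The share of falls over all genes was 41.3%, and no difference between the pathways was tested. These medians move with the scaling between libraries, because use of plain library totals shifted the median of all genes by 0.10 upward.

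Among the base excision glycosylases, NEIL3 and UNG fell most. NEIL3 (chromosome 4, 177309874 to 177371268, GRCh38), a glycosylase for oxidised bases and for crosslinked DNA, had 0.866, 0.621 and 0.996 CPM in the PPM1G shRNA libraries, against 19.6, 18.4 and 19.6 CPM in the control libraries. The groups did not overlap, and the log2 change of -4.54 ± 0.13 (adjusted p = 1.2e-24) left 0.0431 of the control level. UNG (chromosome 12, 109097597 to 109110992), which removes uracil from DNA, had 7.91, 6.67 and 7.35 CPM in the PPM1G shRNA libraries, against 44.9, 45.6 and 48.1 CPM in the control libraries. All 3 PPM1G shRNA libraries were far below the controls, at -2.66 ± 0.07 (adjusted p = 1.2e-25).

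The other uracil and thymine glycosylases moved otherwise. SMUG1, a second uracil glycosylase, had 12.7, 12.9 and 14.2 CPM in the PPM1G shRNA libraries, against 9.01, 11.7 and 10.4 CPM in the control libraries, a rise of 0.36 ± 0.09 (adjusted p = 0.001). TDG, which removes thymine from G:T mispairs and oxidised methylcytosine, rose by 0.34 ± 0.04 (adjusted p = 1.6e-08), with 78.3 to 83.6 CPM in PPM1G shRNA libraries and 62.7 to 66.5 CPM in control libraries. MBD4, which acts on the same kind of mispair at methylated CpG sites, fell by 0.40 ± 0.05 on the log2 scale (adjusted p = 3.8e-09). The direction therefore differed between enzymes with overlapping substrates.

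The other glycosylases for oxidised bases, and MPG for alkylated ones, showed smaller changes than NEIL3 or missed the threshold. MUTYH, which removes adenine opposite 8-oxoguanine, fell to 25.1 ± 0.573 CPM in PPM1G shRNA libraries, against 34.0 ± 1.13 CPM in control libraries (SD, n = 3 each), a log2 change of -0.43 ± 0.06 (adjusted p = 5.4e-08). OGG1, which removes 8-oxoguanine itself, changed by -0.16 ± 0.06 (adjusted p = 0.012), a call that was lost without PPM1G shRNA library 3 (adjusted p = 0.0878). It was also lost with plain library totals, at -0.056 (adjusted p = 0.352), and in both limma fits on log2 FPKM (adjusted p = 0.319 and 0.325). MPG, which removes alkylated purines, changed by -0.19 ± 0.06 (adjusted p = 0.0054), and its call was lost without PPM1G shRNA library 2 (adjusted p = 0.108), with library totals at -0.094 (adjusted p = 0.158) and in both limma fits (adjusted p = 0.182 and 0.174). NTHL1 and NEIL2, glycosylases for oxidised pyrimidines, did not pass the threshold. The 95% intervals of their log2 changes were -0.29 to 0.02 for NTHL1 and -0.13 to 0.28 for NEIL2, and NEIL2 passed in both limma fits (adjusted p = 0.0275 and 0.0306). NEIL1 had 4, 5 and 4 counts in the PPM1G shRNA libraries and 6, 3 and 3 counts in the control libraries, too few for any comparison.

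Downstream of the glycosylases, the endonuclease APEX1 stayed near its control level, while the break sensors and ligases fell. APEX1, the main endonuclease for sites that lack a base, had 278, 262 and 272 CPM in the PPM1G shRNA libraries, against 305, 296 and 283 CPM in the control libraries, a change of -0.12 ± 0.03 (adjusted p = 0.00086). With plain library totals in place of TMM factors this was -0.022 and lost its call (adjusted p = 0.527), as it did in both limma fits on log2 FPKM (0.578 and 0.574). PARP1 (chromosome 1, 226360691 to 226408093), the main sensor of strand breaks that builds poly(ADP-ribose), had 63.0, 60.3 and 62.6 CPM in the PPM1G shRNA libraries, against 230.0, 230.0 and 226 CPM in the control libraries. Its log2 change was -1.88 ± 0.04 (adjusted p = 3.6e-30), with no overlap between the groups. PARP2 (chromosome 14, 20343635 to 20357904), its close relative, had 48.2, 49.3 and 46.4 CPM in the PPM1G shRNA libraries, against 149, 149.6 and 149 CPM in the control libraries, a change of -1.64 ± 0.04 (adjusted p = 3.2e-27). The levels left were 0.271 of control for PARP1 and 0.321 for PARP2.

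The 2 ligases of base excision both fell, LIG1 more than LIG3. LIG1 (chromosome 19, 48115445 to 48170344), which also joins Okazaki fragments in replication, had 7.36, 7.37 and 7.83 CPM in the PPM1G shRNA libraries, against 41.6, 38.9 and 45.8 CPM in the control libraries, a change of -2.48 ± 0.08 (adjusted p = 3.1e-24). LIG3, the ligase that works with XRCC1, had 22.5, 21.6 and 20.5 CPM in the PPM1G shRNA libraries, against 42.4, 43.6 and 43.0 CPM in the control libraries, a change of -0.996 ± 0.057 that falls just short of 2-fold. XRCC1, the scaffold of single-strand break repair, had 38.1, 36.2 and 42.6 CPM in the PPM1G shRNA libraries, against 67.0, 63.0 and 66.5 CPM in the control libraries, a change of -0.75 ± 0.05. Neither LIG3 nor XRCC1 overlapped between the groups. POLB, the gap-filling polymerase, had 19.4, 21.7 and 18.8 CPM in the PPM1G shRNA libraries and 18.3, 16.3 and 18.7 CPM in the control libraries, at 0.17 ± 0.08 (adjusted p = 0.044). The call for POLB was lost without PPM1G shRNA library 2 (adjusted p = 0.259) or control library 2 (adjusted p = 0.224), and also with DESeq2. APTX, which clears abortive ligation ends, rose by 0.24 ± 0.06 (adjusted p = 0.00075).

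**Figure D2:**
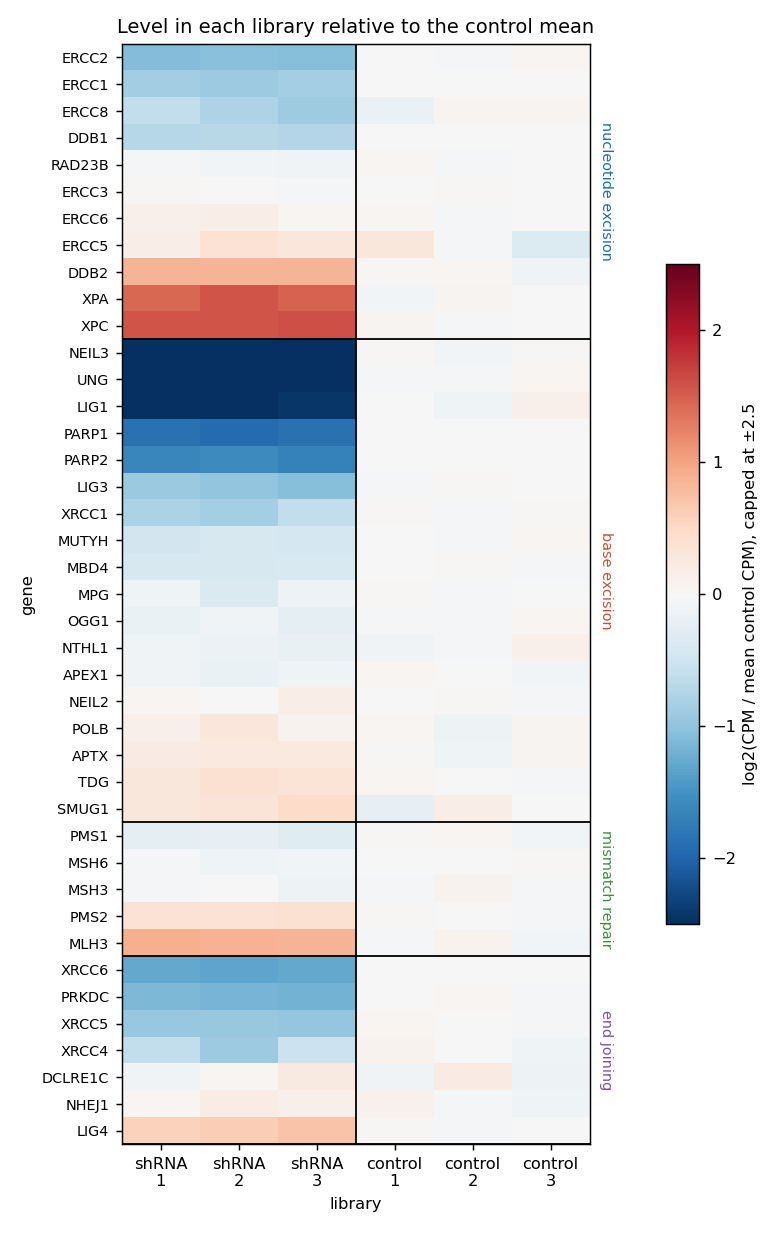
Heat map of the 41 tested repair genes (rows, by pathway) in the 3 PPM1G shRNA and 3 control libraries (columns). Colour gives the log2 of each library's CPM over the mean control CPM, blue for lower and red for higher, capped at ±2.5, and NEIL3, UNG and LIG1 are the darkest blue in all 3 PPM1G shRNA libraries.

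Among the nucleotide excision genes, XPC, XPA and DDB2 rose most. XPC (chromosome 3, 14145147 to 14178601), the sensor that scans the genome for distorted DNA, had 193, 194 and 199 CPM in the PPM1G shRNA libraries, against 67.7, 62.4 and 64.7 CPM in the control libraries. This was a rise of 1.59 ± 0.04 (adjusted p = 1.7e-27), 3.01-fold. XPA (chromosome 9, 97654398 to 97697340), which verifies the lesion, had 33.8, 36.9 and 34.7 CPM in the PPM1G shRNA libraries, against 11.8, 13.1 and 12.5 CPM in the control libraries, a rise of 1.49 ± 0.07 (adjusted p = 3.1e-19), 2.82-fold. DDB2 (chromosome 11, 47214454 to 47239217), the ultraviolet-lesion sensor, had 31.5, 31.3 and 31.1 CPM in the PPM1G shRNA libraries, against 17.7, 18.04 and 16.3 CPM in the control libraries, a rise of 0.85 ± 0.07 (adjusted p = 2.2e-13). In all 3 genes every PPM1G shRNA library lay above every control library.

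DDB1, the partner of DDB2 and an adaptor of CUL4 ubiquitin ligases, moved the other way, with 248, 254 and 247 CPM in the PPM1G shRNA libraries, against 407, 410.3 and 408 CPM in the control libraries, a change of -0.71 ± 0.03 (adjusted p = 3.1e-21). RAD23B, which stabilises XPC, was close to level at 446, 440.5 and 432 CPM in the PPM1G shRNA libraries and 474, 447 and 456 CPM in the control libraries. Its change of -0.06 ± 0.03 (adjusted p = 0.041) lost its call without any 1 of PPM1G shRNA libraries 1 to 3 or control library 1, where the adjusted p ran from 0.0585 to 0.244. Under plain library totals its sign turned, and its FPKM averaged 105 in PPM1G shRNA libraries and 102 in control libraries.

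The helicases and nucleases showed both falls and no call. ERCC2, a helicase of the TFIIH complex that opens the DNA, had 50.1, 52.0 and 50.9 CPM in the PPM1G shRNA libraries, against 106, 105 and 109.8 CPM in the control libraries, a change of -1.07 ± 0.04 (adjusted p = 1.7e-21). ERCC3, the other TFIIH helicase, did not pass, with a 95% interval of -0.08 to 0.07. With library totals and in both limma fits it was called as risen by 0.10 (adjusted p = 0.0166, 0.0152 and 0.0153). ERCC1, the partner in the nuclease that cuts on the 5′ side of the lesion, had 75.8, 74.2 and 77.4 CPM in the PPM1G shRNA libraries, against 138, 140.2 and 140.2 CPM in the control libraries, a change of -0.88 ± 0.04 (adjusted p = 1.6e-20). ERCC5, the nuclease that cuts on the 3′ side, had only 45, 59 and 56 counts in the PPM1G shRNA libraries and 52, 42 and 34 counts in the control libraries. It did not pass, and its 95% interval was -0.23 to 0.77.

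The pair that couples repair to transcription also parted. ERCC8, a subunit of a ubiquitin ligase at stalled polymerases, had 5.56, 5.02 and 4.66 CPM in the PPM1G shRNA libraries, against 7.64, 9.03 and 9.05 CPM in the control libraries, a change of -0.76 ± 0.12 (adjusted p = 7.7e-07). ERCC6, the ATPase that binds the stalled polymerase, had 70.4, 73.2 and 67.1 CPM in the PPM1G shRNA libraries and 67.0, 63.4 and 64.0 CPM in the control libraries, at 0.12 ± 0.04 (adjusted p = 0.017). The call for ERCC6 was lost without PPM1G shRNA library 2 (adjusted p = 0.115) or control library 2 (adjusted p = 0.0747).

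In mismatch repair the recognition proteins did not pass the threshold, while the MutL subunits went both ways. MSH6, which recognises base mispairs and small loops, had 137, 129 and 132 CPM in the PPM1G shRNA libraries and 137, 138 and 141 CPM in the control libraries, with a 95% interval of -0.13 to 0.00. MSH3, which recognises larger loops, had 19.7, 20.4 and 18.6 CPM in the PPM1G shRNA libraries and 19.6, 21.4 and 19.6 CPM in the control libraries, with an interval of -0.19 to 0.10. The groups overlapped for MSH3, and for MSH6 the highest PPM1G shRNA library lay just below the lowest control library.

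MLH3 (chromosome 14, 75013775 to 75051467), a MutL subunit known chiefly from meiosis, had 83.3, 83.0 and 81.1 CPM in the PPM1G shRNA libraries, against 44.4, 47.9 and 43.3 CPM in the control libraries, a rise of 0.87 ± 0.05 (adjusted p = 6.7e-18). PMS2, the endonuclease subunit of the main MutL complex, had 32.2, 32.5 and 33.1 CPM in the PPM1G shRNA libraries, against 25.7, 25.2 and 24.8 CPM in the control libraries, a rise of 0.37 ± 0.06 (adjusted p = 9.5e-07). RefSeq names 15 pseudogenes of PMS2, so its counts may be split or shared with them and are uncertain. PMS1, a further MutL subunit, fell by 0.25 ± 0.05 on the log2 scale (adjusted p = 0.00011), with 32.8, 33.3 and 31.4 CPM in the PPM1G shRNA libraries and 39.3, 39.99 and 36.6 CPM in the control libraries.

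For end joining, all 3 subunits of the DNA-dependent protein kinase fell and the ligase rose. XRCC6, the Ku70 end-binding subunit, had 189.7, 186 and 189 CPM in the PPM1G shRNA libraries, against 460.1, 456 and 465 CPM in the control libraries, a change of -1.29 ± 0.03 (adjusted p = 3.9e-28). XRCC5, the Ku80 subunit, had 217, 217 and 215 CPM in the PPM1G shRNA libraries, against 430.4, 415 and 408 CPM in the control libraries, a change of -0.95 ± 0.03 (adjusted p = 3.6e-24). PRKDC, the catalytic subunit of the kinase, had 598, 584 and 579.5 CPM in the PPM1G shRNA libraries, against 1297, 1347 and 1288 CPM in the control libraries, a change of -1.16 ± 0.03 (adjusted p = 1e-27). The levels left were 0.409 of control for XRCC6, 0.518 for XRCC5 and 0.448 for PRKDC.

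LIG4 (chromosome 13, 108207442 to 108218349), the ligase dedicated to end joining, had 80.6, 82.7 and 88.8 CPM in the PPM1G shRNA libraries, against 55.5, 52.5 and 54.9 CPM in the control libraries, a rise of 0.63 ± 0.05 (adjusted p = 2.5e-14). XRCC4, which holds and stabilises LIG4, had 12.6, 10.3 and 13.3 CPM in the PPM1G shRNA libraries, against 20.5, 19.5 and 17.9 CPM in the control libraries, a change of -0.67 ± 0.09 (adjusted p = 3e-08). The ligase and its partner therefore moved in opposite directions. NHEJ1, which bridges the ends together with XRCC4, and DCLRE1C, the Artemis nuclease that opens hairpin ends, did not pass the threshold. Their 95% intervals were -0.02 to 0.26 for NHEJ1 and -0.12 to 0.26 for DCLRE1C, and NHEJ1 was called without control library 1 (adjusted p = 0.0363). It was also called with library totals (0.22, adjusted p = 0.00643) and in both limma fits (adjusted p = 0.0242 and 0.0271).

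Genes that act beside these in the same pathways were taken from a textbook list of 58, of which 56 were tested. Among them 33 fell and 18 rose, 16 fell and 2 rose at least 2-fold, and the median log2 change was -0.37. Falls were 58.9% of the tested companions, against 41.3% of all genes tested, and rises 32.1%, against 41.5%. Falls of at least 2-fold were 28.6%, against 12.4% of all genes, and 91.1% were called, against 82.9%. The mismatch repair companions, which are mostly replication factors, all fell: 8 of 8 tested, 6 of them at least 2-fold, with a median of -2.45. PCNA among them is also 1 of the proliferation markers, and those fell in all 12 cases, as given above. Of these the exonuclease EXO1 fell most, with 1.248 CPM on average in PPM1G shRNA libraries and 31.5 CPM in control libraries, a change of -4.65 ± 0.11. The recognition and MutL genes above had a median of -0.05 in the same pathway.

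In base excision 7 companions fell (58.3%) and 5 rose (41.7%) among 12. Over all genes tested 41.3% fell and 41.5% rose, and no pathway was tested against these shares. The flap nuclease FEN1 fell most at -3.06 ± 0.06, with 13.0 CPM in PPM1G shRNA libraries and 109 CPM in control libraries, and ADPRS, which removes ADP-ribose from serine, rose most at 0.56 ± 0.08. In nucleotide excision 12 fell (63.2%) and 5 rose (26.3%) among 19. There RPA1, the large subunit of the single-strand DNA binding complex, fell most at -1.62 ± 0.04, with 68.0 CPM in PPM1G shRNA libraries and 209 CPM in control libraries, while CDK7, the kinase of TFIIH, rose by 1.02 ± 0.05. End joining companions held 8 rises (47.1%) and 6 falls (35.3%) among 17, near the shares over all genes. POLQ, the polymerase of microhomology-mediated joining, fell most at -3.74 ± 0.07, with 5.57 CPM in PPM1G shRNA libraries and 74.3 CPM in control libraries. SHLD1, a shieldin subunit, rose most at 1.21 ± 0.33 on few reads, with 37, 53 and 45 counts in the PPM1G shRNA libraries and 13, 29 and 14 counts in the control libraries.

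**Figure D3:**
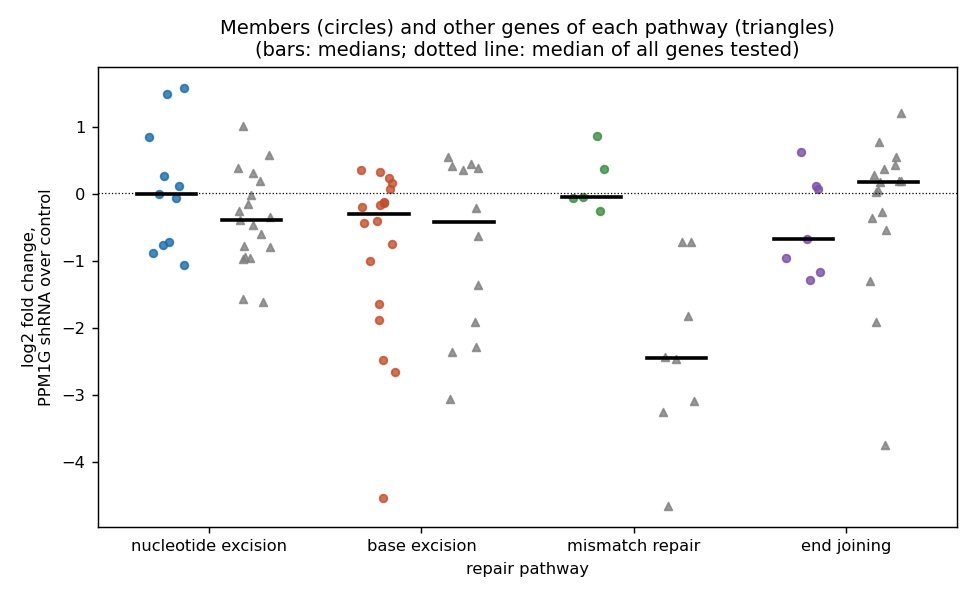
Log2 fold change of PPM1G shRNA over control for each tested repair gene and companion gene, by pathway (circles for repair genes, triangles for companions), with a bar at the median of each set and a dotted line at the median of all genes tested. The companion genes of mismatch repair lie lowest, at a median of -2.45.

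Levels per length put the order of the repair genes on 1 scale. APEX1 was highest in the PPM1G shRNA libraries at 202 FPKM and had rank 2 in the control libraries at 205 FPKM. XRCC6 had rank 3 in the PPM1G shRNA libraries at 91.8 FPKM and rank 1 by mean in the control libraries at 209 FPKM, although APEX1 was above it in control library 1 (212 FPKM for APEX1, 209 FPKM for XRCC6). XPC moved up to rank 6 at 53.1 FPKM in PPM1G shRNA libraries, against rank 17 at 16.5 FPKM in control libraries. UNG moved down to rank 34 at 3.28 FPKM in PPM1G shRNA libraries, against rank 15 at 19.3 FPKM in control libraries, and LIG1 to rank 36 at 2.49 FPKM, against rank 20 at 13.0 FPKM. PARP1 moved to rank 17 at 16.1 FPKM in PPM1G shRNA libraries, against rank 8 at 55.5 FPKM in control libraries. At the bottom NEIL1 stayed below all others in both groups, at 0.0371 FPKM in PPM1G shRNA libraries and 0.0330 FPKM in control libraries.

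A ratio of 2 genes within a library does not depend on scaling between libraries. Ratios of FPKM were compared for 9 partner pairs with a 2-sided exact permutation test over the 6 libraries, whose smallest possible p is 0.1. In 8 of the 9 pairs the groups did not overlap and p was 0.1 (Benjamini-Hochberg 0.113), so no ratio could pass 0.05. Over all genes tested 82.9% were called, and how often other gene pairs separate was not examined. A 10th pair, NEIL3 with NEIL1, was left out for the low counts of NEIL1.

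The largest shift was between the uracil glycosylases. UNG stood to SMUG1 at 0.908, 0.752 and 0.754 in the PPM1G shRNA libraries, against 7.26, 5.68 and 6.71 in the control libraries, so that the more abundant enzyme of the pair changed. DDB2 stood to DDB1 at a geometric mean of 0.293 in PPM1G shRNA libraries and 0.0993 in control libraries, a log2 difference of 1.56 ± 0.08 (SD of the difference). LIG1 stood to LIG3 at 0.550 in PPM1G shRNA libraries and 1.54 in control libraries, a difference of -1.49 ± 0.17. LIG4 stood to XRCC4 at 5.33 in PPM1G shRNA libraries and 2.15 in control libraries, a difference of 1.31 ± 0.20. The ligase pair changed places in order, and LIG4 was the higher of its pair in every library.

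Smaller shifts were found in the other pairs. ERCC6 stood to ERCC8 at 4.49 in PPM1G shRNA libraries and 2.45 in control libraries, a difference of 0.87 ± 0.22. PMS2 stood to PMS1 at 0.953 in PPM1G shRNA libraries and 0.621 in control libraries, a difference of 0.62 ± 0.08. XRCC5 stood to XRCC6 at 0.722 in PPM1G shRNA libraries and 0.570 in control libraries, and PARP1 to PARP2 at 0.786 in PPM1G shRNA libraries and 0.933 in control libraries. MSH6 stood to MSH3 at 6.44 in PPM1G shRNA libraries and 6.53 in control libraries, a difference of -0.02 ± 0.12 whose groups overlapped (exact permutation p = 0.6).

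**Figure D4:**
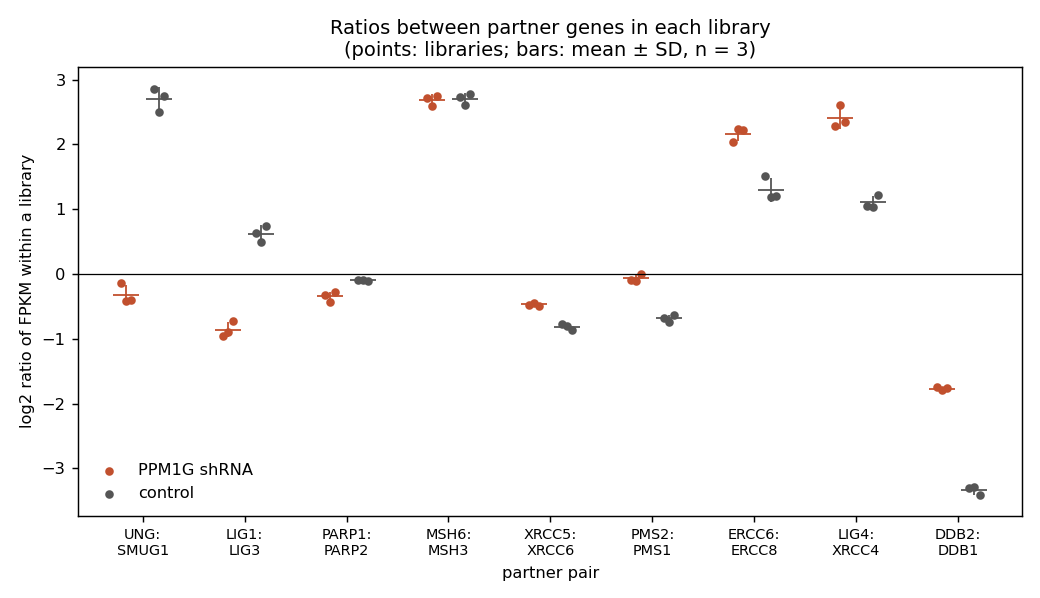
Within-library log2 FPKM ratio of 9 partner pairs in 3 PPM1G shRNA and 3 control libraries, 1 point per library, with bars for the mean ± SD. The UNG to SMUG1 ratio differs by -3.02 and the MSH6 to MSH3 ratio by -0.02.

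The start regions of the genes with the 3 largest falls and the 2 largest rises are shown because genes of the replication programme often carry E2F and cell cycle homology region (CHR) motifs near their start. Each line gives 250 bases before and 50 bases after the start in RefSeq on GRCh38.p14, 5′ to 3′ on the strand of the gene, and UNG is shown for both of its starts. Capitals mark E2F-type letters (TTTCCCGC, TTTCGCGC, TTTGCCGC or TTTGGCGC) and CHR letters (TTTGAA), each on either strand.
NEIL3 promoter (chr4:177309624-177309923, plus strand): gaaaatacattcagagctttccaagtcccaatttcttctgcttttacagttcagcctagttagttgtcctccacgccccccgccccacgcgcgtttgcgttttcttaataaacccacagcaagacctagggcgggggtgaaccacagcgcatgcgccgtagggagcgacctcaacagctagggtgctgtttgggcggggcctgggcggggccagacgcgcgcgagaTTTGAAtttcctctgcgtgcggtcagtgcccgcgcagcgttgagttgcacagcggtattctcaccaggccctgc
UNG start 1 promoter (chr12:109097347-109097646, plus strand): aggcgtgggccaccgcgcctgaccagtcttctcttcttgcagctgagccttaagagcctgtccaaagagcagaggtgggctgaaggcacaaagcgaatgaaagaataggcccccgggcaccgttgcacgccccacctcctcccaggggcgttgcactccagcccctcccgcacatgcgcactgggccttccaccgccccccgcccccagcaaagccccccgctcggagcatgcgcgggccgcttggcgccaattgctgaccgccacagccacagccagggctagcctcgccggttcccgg
UNG start 2 promoter (chr12:109097922-109098221, plus strand): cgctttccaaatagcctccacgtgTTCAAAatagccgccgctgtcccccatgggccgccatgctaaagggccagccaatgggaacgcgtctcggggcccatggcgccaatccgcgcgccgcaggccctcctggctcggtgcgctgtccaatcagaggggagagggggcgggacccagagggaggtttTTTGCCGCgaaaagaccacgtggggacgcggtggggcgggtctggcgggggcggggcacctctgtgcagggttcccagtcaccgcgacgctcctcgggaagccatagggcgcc
LIG1 promoter (chr19:48170295-48170594, minus strand): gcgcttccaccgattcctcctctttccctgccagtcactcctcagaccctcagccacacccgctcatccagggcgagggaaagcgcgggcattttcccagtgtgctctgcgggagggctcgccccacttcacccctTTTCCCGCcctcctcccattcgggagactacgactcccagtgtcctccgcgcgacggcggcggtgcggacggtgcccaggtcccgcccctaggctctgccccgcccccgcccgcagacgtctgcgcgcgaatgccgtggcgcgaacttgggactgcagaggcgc
XPC promoter (chr3:14178552-14178851, minus strand): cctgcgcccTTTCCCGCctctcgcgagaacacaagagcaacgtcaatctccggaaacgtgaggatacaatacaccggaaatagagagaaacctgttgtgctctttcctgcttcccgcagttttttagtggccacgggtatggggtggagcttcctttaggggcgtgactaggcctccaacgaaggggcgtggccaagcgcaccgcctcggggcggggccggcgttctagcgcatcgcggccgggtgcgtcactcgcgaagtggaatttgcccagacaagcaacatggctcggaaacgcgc
XPA promoter (chr9:97697291-97697590, minus strand): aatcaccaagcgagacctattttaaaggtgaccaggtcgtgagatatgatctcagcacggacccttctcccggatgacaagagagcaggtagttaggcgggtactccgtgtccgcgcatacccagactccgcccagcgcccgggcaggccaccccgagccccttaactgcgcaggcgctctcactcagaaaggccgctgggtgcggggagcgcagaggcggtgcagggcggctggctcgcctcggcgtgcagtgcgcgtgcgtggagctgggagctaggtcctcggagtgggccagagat

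Matches were found in windows of genes that fell and of 1 that rose. NEIL3 held a CHR match 24 bases before its start, the second start of UNG held a CHR match and an E2F-type match, and LIG1 held an E2F-type match. XPC, which rose, held the same E2F-type letters as LIG1, and neither the first start of UNG nor XPA held a match. A window was given for 37 of the 42 genes, those without one being NEIL2, SMUG1, POLB, XRCC5 and PRKDC.

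E2F-type letters occurred in 7 of the 37 genes (18.9%), against 6.59% of 10751 tested genes with a window and 3.31% of all 35116 windows. These 7 were UNG, LIG1 and XRCC6, which fell at least 2-fold, XPC and PMS2, which rose, and MSH3 and MSH6, which did not pass. They were thus in 3 of the 7 genes with a window that fell at least 2-fold (42.9%) and in 4 of the 30 others (13.3%). CHR letters occurred in 7 genes (18.9%), against 14.1% of tested genes and 15.2% of all windows, and in 2 of the 7 that fell at least 2-fold (28.6%) and 5 of the 30 others (16.7%). None of these shares was tested against another. A gene was counted if any of its windows matched, while the share of all windows counts single windows, a different unit. CCAAT, searched on both strands and not capitalised above, occurred in 23 genes (62.2%), against 43.6% of tested genes and 34.6% of all windows. A match to these letters is a description of the sequence and not a binding site.

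For 15 of the repair genes a protein-coding gene that starts head to head was compared, with starts at most 1000 bases apart or overlapping by at most 500 in GENCODE 29. Both genes were called in the same direction in 7 pairs, in opposite directions in 4, and 1 or both missed the threshold in 4. Over all genes tested 82.9% were called, 41.5% higher and 41.3% lower. Of the opposite pairs 2 rest on MPG and APEX1, whose calls were lost with library totals and in both limma fits. The difference between neighbours was not tested. XPC and LSM3, a subunit of an RNA decapping and splicing ring, overlap by 425 bases at their starts, and LSM3 had 14.2, 14.7 and 13.3 CPM in the PPM1G shRNA libraries, against 44.2, 49.3 and 45.8 CPM in the control libraries. Its change of -1.72 ± 0.06 (adjusted p = 5.8e-22) stood opposite the rise of XPC.

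LIG1 lies 89 bases from ZSWIM9, which did not pass at 0.14 ± 0.10. PRKDC lies 2 bases from MCM4, a subunit of the replicative helicase, and both fell, MCM4 by 2.18 ± 0.03 on the log2 scale. LIG4 and ABHD13 both rose, as did PMS2 and AIMP2, whose log2 changes were 0.37 each.

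**Figure D5:**
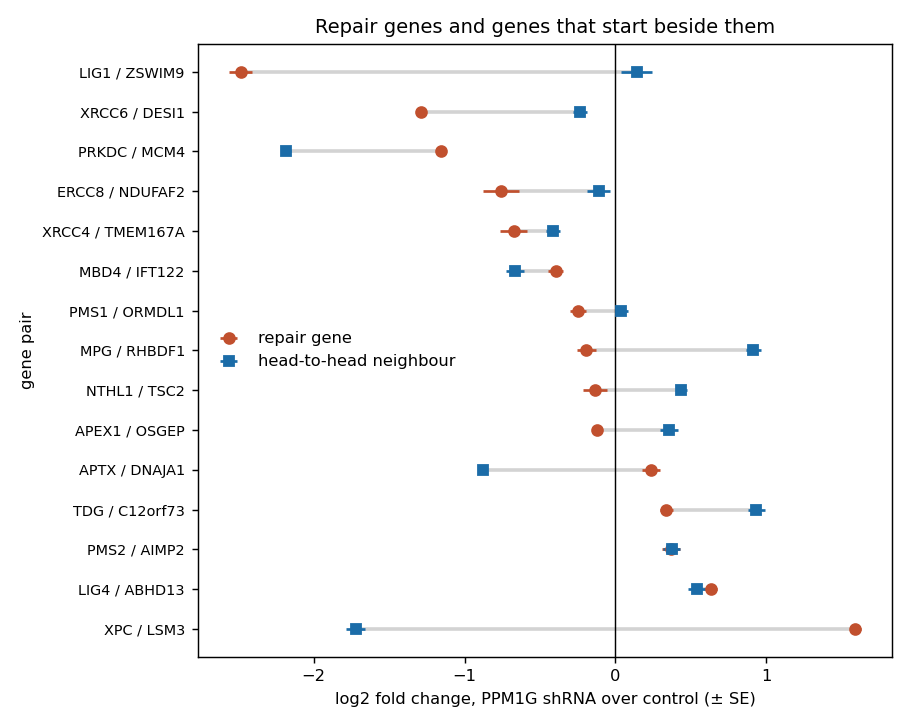
Log2 fold change of PPM1G shRNA over control with bars of 1 SE for 15 repair genes and the genes that start head to head with them. XPC and LSM3 stand apart at 1.59 and -1.72.

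Shared exon bases limit some of these values, since no source used here gives the strand setting of the counting. Exon bases shared with another gene in GENCODE 29 are counted here for 23 of the genes, and for 9 of them 20% or more of the exon bases are shared with 1 other gene. XPC shares 23.8% with an antisense RNA and 318 bases with LSM3. ERCC5 shares 63.2% with a readthrough transcript of the same strand, NHEJ1 65.4% with a gene of the same strand, LIG3 29.1% with RFFL and ERCC1 28.6% with a gene on the other strand. ERCC8, a gene with few counts, shares 28.3% with a processed pseudogene of the same strand. On the other strand, MPG shares 27.3% with NPRL3, NEIL1 26.4% with MAN2C1 and OGG1 25.0% with CAMK1. Where reads were split or counted for both genes, the levels given here are uncertain. RefSeq also names 5 pseudogenes of XRCC6, 3 each of RAD23B and UNG, and 2 of PARP1.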

How the data were processed

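RNA sequencing libraries of NCI-H1703 cells (3 PPM1G shRNA, 3 control) were analysed from the deposited tables. The authors deposited whole-number counts per gene without normalization, as judged from the values, and FPKM values, which the deposited counts, a length per gene and the library totals reproduce. Per the submitters' processing notes the genome build was GRCh38. For the aligner, counter, annotation and strand setting, the answer is not given in the sources used here.

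Counts were fitted with edgeR 4.0.16 in R 4.3.3 over all 13060 genes that passed filterByExpr (minimum count 10), with TMM scaling, a robust quasi-likelihood fit, group as the only term and Benjamini-Hochberg adjustment. The SE of a log2 fold change is its absolute value divided by the square root of F. The 95% intervals use this SE with a normal quantile, so they are somewhat narrower than the F-test would give. The fit was tested on simulated data. Alternatives used DESeq2 1.42.0, limma 3.58.1 on log2(FPKM + 1) and log2(FPKM + 0.1), other scalings and filters, a replicate block, and each library left out. Tables were joined with Python 3.11.15 and pandas 2.3.3.

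The repair genes, companion lists, marker lists and partner pairs were chosen with earlier results of these data known. All repair genes were described. Values of every library were given for the 5 largest falls and rises and for the partner pairs, and for each pathway the companion genes with the largest fall and rise were named. Genes that are neither were named after their values were seen. In the counts of neighbouring and overlapping genes, 1 gene is left out and not reported here.

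Library totals of 31337553 to 35838246 counts limit precision for genes with few counts. Libraries of a group differed beyond sampling noise in each pair (chi-square divided by its degrees of freedom, 2.69 to 6.44), and each was treated as 1 replicate. This spread cannot show whether they came from separate cultures, because it may be technical.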

Additional observations from a re-analysis of the deposited data

How the results depend on the processing

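Of the 41 tested repair genes, 32 kept their side of the threshold in all 14 alternatives. The other 9 were ERCC3, ERCC6, RAD23B, OGG1, NEIL2, MPG, APEX1, POLB and NHEJ1. Among the 32, called genes kept their direction, while MSH3, MSH6 and DCLRE1C, never called, changed sign. MSH3 went from -0.045 to as high as 0.055, and MSH6 from -0.065 to as high as 0.035. DCLRE1C went from 0.068 to as low as -0.016 with 1 library left out. With a replicate block, 10805 genes were called, against 10821 without it, and the repair genes held 11 rises and 22 falls as before. Libraries of the same number deviated together with correlations of 0.033, 0.00054 and 0.0034, so the numbers were not taken to pair the samples. Under library totals, limma on log2(FPKM + 1) and limma on log2(FPKM + 0.1), in this order, ERCC3 turned to 0.10, 0.10 and 0.10 and RAD23B to 0.037, 0.037 and 0.037. In the same order, median log2 changes were -0.036, -0.030 and -0.032 for all repair genes, 0.098, 0.096 and 0.098 for nucleotide excision, -0.20, -0.18 and -0.20 for base excision, 0.055, 0.045 and 0.054 for mismatch repair, and -0.27, -0.26 and -0.27 for companions. The base excision median was -0.19 with no filter, the end joining median -0.47 with limma at a pseudocount of 1, and 1 companion rose at least 2-fold in both limma fits. Leaving out 1 library gave medians of -0.17 to -0.11 for repair genes and -0.44 to -0.36 for companions, and 1 to 2 companions risen at least 2-fold. Rises of repair genes ranged from 9 to 14 and falls from 18 to 22 over all alternatives. Depth limits NEIL1, ERCC5 and SHLD1, and no cause of these shifts was tested.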
